A study of Mus musculus with 6 samples.

Results

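Endothelial marker genes and the ligands of vascular endothelial growth factor (VEGF) signalling were compared between young and aged mice in whole gastrocnemius, a muscle of the calf. The 10 genes were taken by symbol from the array's gene table, keeping every probe set that the table gives to exactly 1 of them, out of 18193 genes with a named probe set. They are 8 endothelial markers, Pecam1, Cdh5, Emcn, Vwf, Kdr, Flt1, Tek and Tie1, and 2 ligands, Vegfa and Vegfb, and they are covered by 15 probe sets, 12 of markers and 3 of ligands. Total RNA of male C57B1/6 mice was hybridised to 6 Affymetrix arrays, with young replicates numbered 1, 2 and 3 and aged replicates 51, 52 and 53, so n = 3 in each group. The mice are labelled normal, with no treatment, allele or age stated. Whether each array had its own animal is not stated either, so every p-value reflects the spread among these 6 hybridisations, which may be technical.

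VEGF ligands are secreted proteins that act on receptor tyrosine kinases of the endothelium, the cell layer that lines blood vessels. In muscle Vegfa is made in large part by the fibres themselves, and its receptors Kdr and Flt1 sit on the capillaries around them. Tek and Tie1 form the second receptor pair of the vessel wall, which responds to angiopoietins and holds mature vessels stable. The samples were whole muscle, so for an endothelial gene fewer endothelial cells and less RNA per endothelial cell cannot be told apart. For genes that other cells also make, Vegfa among them, the cell type behind a value is not known either.

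For 7 of the 10 genes RefSeq windows of 250 bases before an annotated start site were at hand (GRCm38.p6), 8 windows in all because Vegfa has a second start. Pecam1, Cdh5 and Vwf have no entry. The windows of both ligands and of Tie1 are shown because they let a reader set the ligands against an endothelial receptor. Capitals mark the GC box GGGCGG and the ETS form AGGAAG on either strand, and in Vegfb a pair of GC boxes abut without sharing a base. The windows run 5′ to 3′ on the gene's own strand, which is the minus strand for all 3.
Vegfa, chr17:46032378-46032627: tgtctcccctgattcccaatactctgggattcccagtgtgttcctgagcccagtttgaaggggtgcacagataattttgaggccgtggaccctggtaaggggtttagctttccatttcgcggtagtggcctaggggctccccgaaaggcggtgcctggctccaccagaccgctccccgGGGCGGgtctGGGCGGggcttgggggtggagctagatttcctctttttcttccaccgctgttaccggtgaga
Vegfb, chr19:6987652-6987901: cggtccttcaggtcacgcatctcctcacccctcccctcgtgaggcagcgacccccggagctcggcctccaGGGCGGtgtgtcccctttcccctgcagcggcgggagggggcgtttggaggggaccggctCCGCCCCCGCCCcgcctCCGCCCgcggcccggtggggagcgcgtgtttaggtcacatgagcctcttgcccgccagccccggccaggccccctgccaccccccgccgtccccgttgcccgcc
Tie1, chr4:118489850-118490099: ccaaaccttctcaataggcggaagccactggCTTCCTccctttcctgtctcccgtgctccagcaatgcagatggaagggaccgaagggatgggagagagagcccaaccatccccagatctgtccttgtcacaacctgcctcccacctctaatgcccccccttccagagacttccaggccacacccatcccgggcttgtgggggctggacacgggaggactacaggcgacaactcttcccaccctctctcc

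The GC box was found in 5 of the 8 windows, those of Vegfa (both), Vegfb, Kdr and Flt1, against 32.7% of all 32851 windows of this length. The ETS form AGGAAG was in 3 of 8, those of Emcn, Flt1 and Tie1, against 29.5% of all, and the form CCGGAA in 1, that of Kdr, against 12.03%. ACGTG, a form of the core of the hypoxia response element, was in the second Vegfa window. That window begins inside the gene (start site at position 46025163). ACGTG was in none of the other windows, against 16.6% of all. Other forms of the core were not searched, so the other windows may hold them. A TATA box (TATAAA) lay 31 to 26 bases before the start of Flt1, and 12.4% of all windows hold one. Each motif was searched on both strands, and each match is a description of letters only.

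Array medians lay between 635 and 832 on the deposited signal scale, pairs of arrays correlated between 0.690 and 0.810 over all tested probe sets, and no array duplicated another. The log2 ratio of 3 prime to 5 prime signal at the Gapdh and actin controls, a measure of RNA quality, was 1.71 to 1.77 on the young arrays. It was 2.11, 2.00 and 2.86 on aged replicates 51, 52 and 53, all above the young arrays. Aged replicates 52 and 53 were washed on a second fluidics station under another protocol name, and the other 4 arrays on the first. A probe set was tested when its mean log2 signal reached the median of all probe sets, 9.08, which is a signal of 540. Of the 15 probe sets 10 were tested and 5 were dim, and the dim ones are the only ones for Pecam1 and Tie1. Of the endothelial markers 6 of 8 were therefore testable. Each change below is the aged mean less the young mean of log2 signal (3 arrays each), followed by its standard error from limma. Adjusted p-values are limma's after Benjamini-Hochberg adjustment across the 22519 probe sets tested.

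No difference between young and aged muscle passed the test for any endothelial marker or VEGF ligand. By limma 0 of the 10 tested probe sets passed an adjusted p of 0.05, where 1.05% of all tested probe sets did, and 0 of 10 had an unadjusted p under 0.05, where 10.04% did. On 0 of the 15 probe sets did all aged arrays lie on one side of all young arrays, which happened on 13.2% of all probe sets. The adjusted p-values ran from 0.533 to 0.985. Of the 10 changes 7 were negative and 3 positive.

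**Figure D1:**
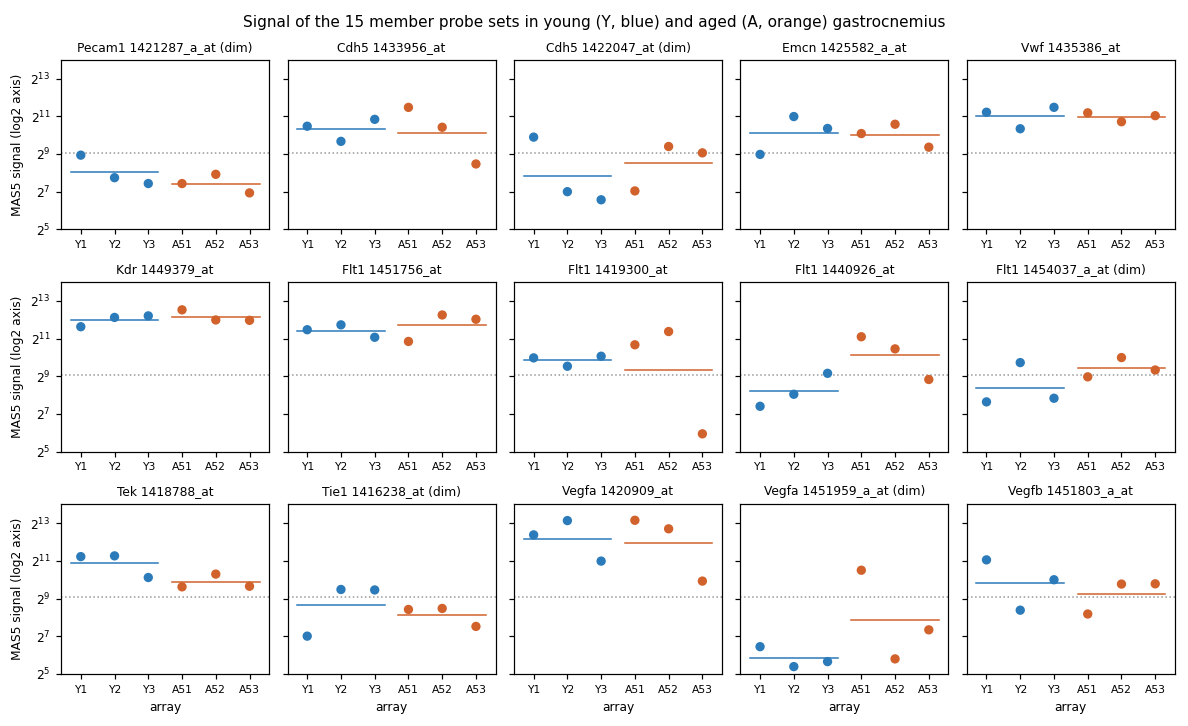
MAS5 signal (log2 axis) of the 15 probe sets on each of the 6 arrays, young in blue and aged in orange; horizontal lines are group means on the log2 scale and the dotted line is the signal of 540 below which probe sets were called dim. In every panel the points of both groups overlap, and for Vegfa 1420909_at and Flt1 1419300_at aged replicate 53 lies lowest, at 978 and 61.6.

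Kdr, the main signalling receptor for VEGF-A, was measured most precisely. Its signal was 3175, 4470 and 4732 on the young arrays and 5909, 4073 and 4015 on aged replicates 51, 52 and 53. The groups overlapped, with the lowest value in young replicate 1 and the highest in aged replicate 51. The change was 0.18 ± 0.30 (adjusted p = 0.872), with a 95% confidence interval from 1.40-fold lower to 1.78-fold higher in aged muscle. These limits were the narrowest of the 10 tested probe sets.

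Flt1, the receptor that binds both Vegfa and Vegfb and also exists as a secreted decoy, was covered by 4 probe sets that did not point one way. On the brightest, 1451756_at, the signal was 2843, 3401 and 2153 in young and 1846, 4891 and 4180 in aged muscle. That group of aged values spans the young ones, and the change was 0.29 ± 0.40 (adjusted p = 0.839), from 0.014 without aged replicate 52 to 0.72 without aged replicate 51. On 1440926_at the young signals were 170, 264 and 571 and the aged ones 2194, 1405 and 455. Here aged replicates 51 and 52 lay above every young array and replicate 53 lay among them. The change was 1.93 ± 0.96, the greatest in size of the 10 tested, with an unadjusted p of 0.0674 and an adjusted p of 0.533.

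The third tested Flt1 probe set, 1419300_at, read 1009, 741 and 1071 in young and 1633, 2660 and 61.6 in aged muscle. Aged replicates 51 and 52 again lay above every young array, and replicate 53 lay far below all others, so that the aged arrays spanned 43.2-fold and the young ones 1.45-fold. The change of -0.53 ± 1.17 (adjusted p = 0.905) became 1.17 without aged replicate 53 (adjusted p = 0.387). The dim probe set, 1454037_a_at, was at 200, 848 and 228 in young and 502, 1020 and 645 in aged muscle, a difference of 1.03 in the means, and its groups overlapped. Which transcript forms of Flt1 each probe set reads was not analysed here.

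Tek, the receptor for angiopoietins, had the most negative change of the tested members. Its signal was 2406, 2474 and 1115 in young and 791, 1265 and 809 in aged muscle. Aged replicates 51 and 53 lay below every young array, and aged replicate 52 lay above young replicate 3. The change was -1.01 ± 0.51 (unadjusted p = 0.0689, adjusted p = 0.538), with an interval from 4.33-fold lower to 1.07-fold higher in aged muscle. It was negative under all 19 alternative settings, between -1.39 and -0.74, and passed under none of them. Tie1, its partner receptor, was dim, at 129, 718 and 706 in young and 344, 357 and 184 in aged muscle. Young replicate 1 was the lowest of its 6 arrays and young replicates 2 and 3 the highest.

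Cdh5, or VE-cadherin, which joins endothelial cells at their contacts, read 1420, 813 and 1829 in young and 2840, 1367 and 354 in aged muscle on its tested probe set. Both the highest and the lowest value were aged, in replicates 51 and 53. The change was -0.21 ± 0.72 (adjusted p = 0.941), and it was 0.62 without aged replicate 53. The dim Cdh5 probe set was at 950, 128 and 94.7 in young and 131, 673 and 533 in aged muscle, with a difference of 0.68 in the means. The highest arrays of the tested probe set, aged replicate 51 and young replicate 3, were among the 3 lowest of the dim one with young replicate 2.

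Pecam1, an adhesion molecule of endothelial contacts that platelets and leukocytes also carry, was dim, at 489, 214 and 172 in young and 172, 242 and 122 in aged muscle. All 6 values lay below the signal of 540, so these arrays give little on Pecam1. Emcn, a sialomucin of capillary and venous endothelium, was at 503, 2027 and 1308 in young and 1084, 1526 and 656 in aged muscle. Both ends of its range were young, and the change was -0.10 ± 0.64 (adjusted p = 0.972).

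Vwf, the clotting factor stored in endothelial granules and in platelets, had the smallest change, -0.03 ± 0.41 (adjusted p = 0.985). Its signals were 2378, 1294 and 2847 in young and 2324, 1676 and 2093 in aged muscle, with all aged values inside the young range. The interval ran from 1.91-fold lower to 1.82-fold higher in aged muscle.

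Vegfa, the main angiogenic ligand, read 5355, 9057 and 2040 in young and 9166, 6695 and 978 in aged muscle on its bright probe set, 1420909_at. Aged replicate 53 was the lowest array and young replicate 3 the next, while aged replicate 51 and young replicate 2 were nearly level at the top. The arrays spanned 9.38-fold, and the spread within groups was greater than on 99.6% of tested probe sets of like brightness. The change was -0.24 ± 0.73 (adjusted p = 0.93), with an interval from 3.56-fold lower to 2.55-fold higher in aged muscle, and without aged replicate 53 it was 0.76 (adjusted p = 0.54). The dim Vegfa probe set, 1451959_a_at, was at 87.5, 42.0 and 50.5 in young and 1458, 55.8 and 163 in aged muscle, where the single high value was aged replicate 51.

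Vegfb, a ligand of Flt1 that has been linked to fatty acid uptake across the endothelium, read 2136, 335 and 1027 in young and 291, 876 and 884 in aged muscle. The highest value was young replicate 1 and the lowest aged replicate 51, with young replicate 2 close to it. The change was -0.57 ± 0.86 (adjusted p = 0.847), and without young replicate 1 it was 0.05. The order of the arrays was not that of Vegfa: aged replicate 51 was highest for Vegfa and lowest for Vegfb.

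**Figure D2:**
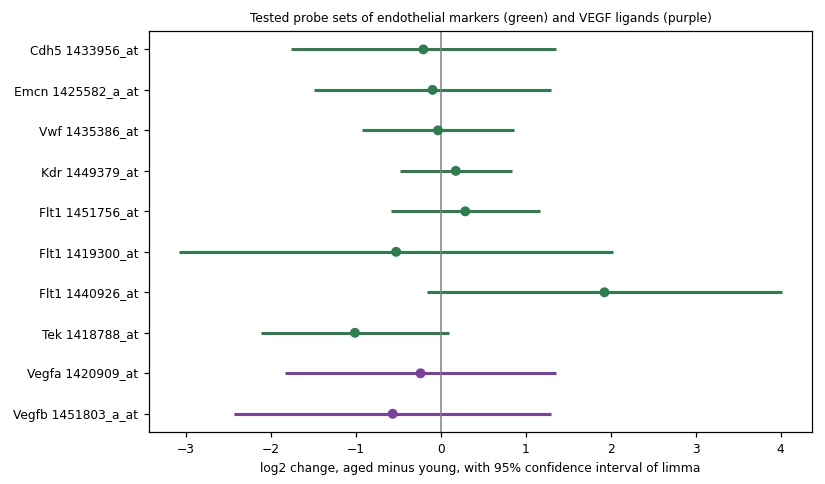
Log2 change (aged minus young, x axis) with limma's 95% confidence interval for the 10 tested probe sets, endothelial markers in green and VEGF ligands in purple. All 10 intervals include 0; the narrowest is that of Kdr and the widest that of Flt1 1419300_at.

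Endothelial markers and VEGF ligands were then set against each other with 1 probe set per gene, the brightest tested. Of the 6 marker genes 4 had a negative and 2 a positive change, with a median of -0.07, and both ligands were negative, with a median of -0.40. Leaving out single arrays moved the marker median between -0.17 (without aged replicate 52) and 0.18 (without aged replicate 53). The ligand median ran from -0.73 without aged replicate 52 to -0.04 without young replicate 1 or aged replicate 53. The median over all 11763 tested genes was 0.0028 and over all tested probe sets 0.0079. Per array, the mean log2 signal of the 6 markers was 10.83, 11.02 and 11.01 in young and 10.96, 11.04 and 10.42 in aged muscle. That is a level of 10.96 ± 0.11 (SD, n = 3) in young and 10.81 ± 0.34 in aged muscle, with aged replicate 53 below the other 5 arrays. The mean of the ligands was 11.00 ± 0.64 in young and 10.59 ± 0.69 in aged muscle, and aged replicate 53 was again lowest, at 9.86.

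Markers minus ligands came to -0.89, 0.25 and 0.51 in young replicates 1, 2 and 3 and to 0.28, -0.20 and 0.56 in aged replicates 51, 52 and 53. The groups overlapped, at -0.04 ± 0.75 in young and 0.21 ± 0.38 in aged muscle, and the difference of 0.26 between their means was smaller than the spread of either group. Since it rests on genes chosen for their role, this score is given without a test. Leaving out single arrays moved the difference between -0.17 (without young replicate 1) and 0.53 (without young replicate 3), with 0.083 without aged replicate 53. It was -0.20 with the ratio of 3 prime to 5 prime signal as a covariate and 0.15 with all 8 markers and no filter, so its sign was not stable.

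**Figure D3:**
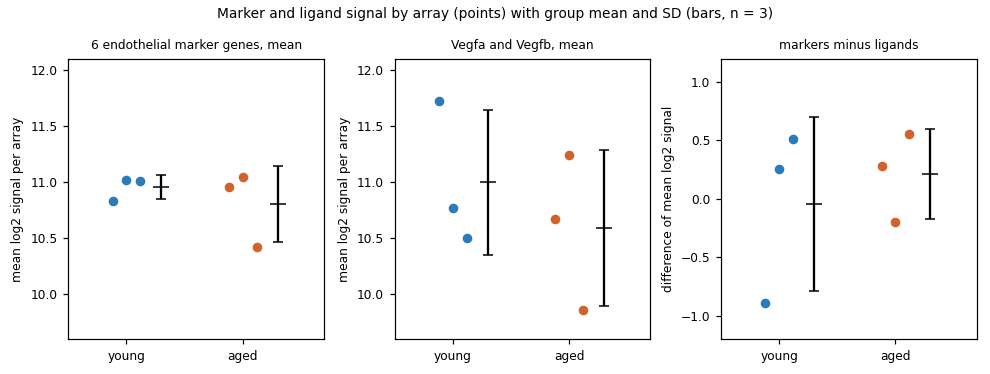
Mean log2 signal per array of the 6 tested endothelial marker genes (left), of Vegfa and Vegfb (middle) and their difference (right); points are arrays, bars the group mean and SD (n = 3). Young and aged points overlap in each panel, and the lowest marker and ligand values are those of aged replicate 53, at 10.4 and 9.86.

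Aged replicate 53 was the array with the highest 3 prime to 5 prime ratio, and it was lowest of the 6 on 3 of the 10 tested probe sets, Cdh5, Flt1 1419300_at and Vegfa, and highest on 0. Aged replicate 51 was highest on 4 and lowest on 3. With the ratio as a covariate the changes were 1.50 for Cdh5, 3.13 for Flt1 1419300_at and 1.84 for Vegfa, all of the other sign. In that fit 0 of the 10 passed (adjusted p 0.231 or more for these 3). The SD of the ratio was 0.03 among young and 0.47 among aged arrays, so its slope rests mostly on the aged arrays. Replicate 53 stood highest there, and these values are not separate from the effect of leaving it out. Within the first station, where aged replicate 51 alone stands against the 3 young arrays, the changes were 1.15 for Cdh5, 0.81 for Flt1 1419300_at, 0.99 for Vegfa and -0.58 for Flt1 1451756_at, and 0 of 10 passed there too. With a lone aged array the spread comes from the young arrays and the moderated fit, and the aged array is assumed to vary like them, which holds for every value from the first station alone.

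**Figure D4:**
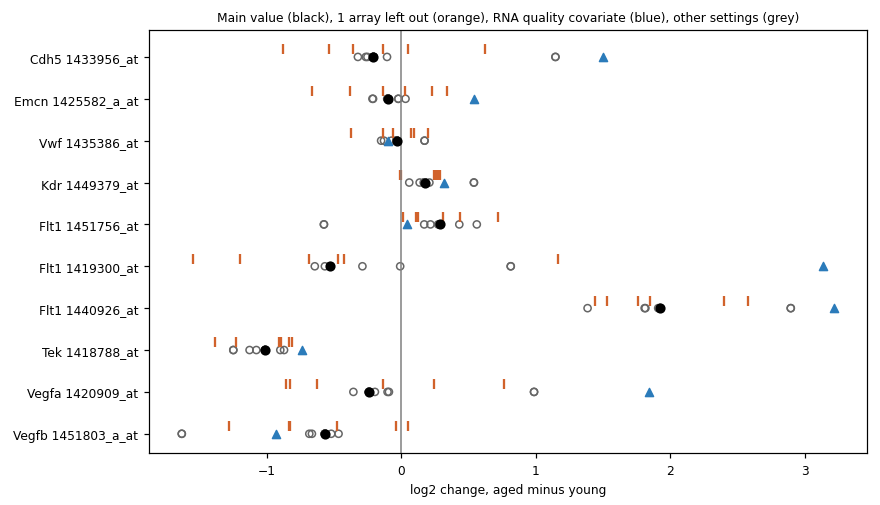
Log2 change (aged minus young) of the 10 tested probe sets in the main setting (black), with 1 array left out (orange ticks), with the RNA quality ratio as a covariate (blue triangles) and under the other alternatives (grey circles). Only Tek and Flt1 1440926_at kept their sign throughout; the triangles of Cdh5, Flt1 1419300_at and Vegfa lie at 1.50, 3.13 and 1.84, across 0 from their main values.

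The other genes of the pathway and of the endothelium were taken from 6 lists with 117 genes, of which 96 were tested. Of these 5 fell, 0 rose and 91 did not pass. Those 5.21% compare with 1.39% of all tested genes past the test, 1.00% lower and 0.391% higher. The called genes were the apelin receptor Aplnr, the calcineurin inhibitor Rcan1, the adaptor Grb10 and the surface glycoproteins Cd93 and Cd34. All 3 aged arrays lay below all 3 young arrays on each of the 5, which the call itself makes likely. The groups did not overlap, in either direction, on 13.2% of all probe sets. None of the 5 passed with the RNA quality ratio, which was higher on every aged array, as a covariate (adjusted p 0.0627 or more), or without the trend of spread with brightness. With that covariate the changes were -2.33 for Aplnr, -1.70 for Rcan1, -1.46 for Grb10, -1.26 for Cd93 and -1.29 for Cd34. Ratio and age go together on these arrays, and the part of RNA quality in the changes was not tested.

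Among genes induced by VEGF or acting in its feedback 2 of 13 tested fell, with a median of -0.44 and 9 of 13 negative. Aplnr, a receptor of sprouting endothelium, was at 9091, 5685 and 7436 in young and 1832, 1064 and 1206 in aged muscle. It was 5.47-fold higher in young muscle (-2.45 ± 0.34, adjusted p = 0.00333), and its other tested probe set was also lower, at -0.72, and did not pass. It passed with each array left out in turn, but not with the station (-1.99, adjusted p = 0.0605) or the RNA quality ratio (-2.33, adjusted p = 0.0879) as a covariate, without the trend of spread with brightness (adjusted p = 0.179) or with probe sets averaged (-1.59, adjusted p = 0.0724). Rcan1, a target and brake of calcium signalling downstream of VEGF receptors, was at 9125, 9509 and 8709 in young and 3608, 2710 and 3920 in aged muscle (-1.43 ± 0.26, adjusted p = 0.0191). Its call was lost when any young array or aged replicate 52 was left out (adjusted p 0.088 to 0.131), with median centring (adjusted p = 0.0505), with its probe sets averaged (-1.02, adjusted p = 0.532) or on the first station alone (-1.34, adjusted p = 0.0555).

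Of the transducers of VEGF receptor signals 1 of 20 tested fell, and the median was 0.03 with 9 negative. It was Grb10, an adaptor that binds activated receptor kinases, the insulin receptor among them, at 20370, 17326 and 20464 in young and 6817, 7542 and 7808 in aged muscle (-1.39 ± 0.21, adjusted p = 0.00605). Its call was lost when young replicate 1 or 3 was left out (-1.35 in both cases, adjusted p 0.0505 to 0.0517) or with the RNA quality covariate (-1.46, adjusted p = 0.0627). Of the other VEGF ligands and receptors 0 of 5 passed (median -0.50, 3 negative). The lymphatic receptor Flt4 was at -1.22 ± 0.58 (adjusted p = 0.513, other probe set 1.67) and the ligand Vegfd at 0.92 ± 0.65 (adjusted p = 0.666), which was 0.23 without young replicate 2.

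Angiopoietins and modulators of their receptors, counted together with the angiopoietin-like gene Angptl4, had 0 of 6 past the test (median 0.52, 2 negative). Angpt1, the ligand that activates Tek, was at 0.90 ± 0.70 (adjusted p = 0.7), and Angptl4, an inhibitor of lipoprotein lipase, at 1.00 ± 0.69 (adjusted p = 0.663), from 0.41 without young replicate 2 to 1.64 without young replicate 3. Of the genes of oxygen sensing and VEGF control 0 of 17 passed (median 0.07, 8 negative). The hypoxia-induced carbonic anhydrase Car9 was at 1.43 ± 0.88 (adjusted p = 0.617) and Vhl, which marks hypoxia-inducible factors for destruction, at -0.55 ± 0.64 (adjusted p = 0.808, other probe set 0.48).

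Of 35 other endothelial markers tested 2 fell, 0 rose and 33 did not pass. Their median was -0.45 and 28 of the 35 changes were negative, where 49.8% of all tested genes were negative. Signals were also summed over all 39 named genes of the list, dim ones included. The sum was 106459 to 111459 on the young arrays and 74855 to 75918 on the aged arrays. Each gene entered by its brightest probe set, so Cd93 and Cd34 are in the sum with the signals given below. Cd93, a receptor of endothelial and some myeloid cells, was at 13416, 15143 and 13778 in young and 6584, 5515 and 6097 in aged muscle (-1.22 ± 0.22, adjusted p = 0.0188). Only 2 of its 4 tested probe sets were lower, another stood at 1.40 in the other direction, and averaged over them the change was -0.09 (adjusted p = 0.956). The call was lost when any young array or aged replicate 52 was left out (adjusted p 0.0923 to 0.15), with median centring (adjusted p = 0.0534) or within the first station (-1.10, adjusted p = 0.071).

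Cd34, which endothelium shares with fibroblasts and progenitor cells, was at 6665, 6580 and 5092 in young and 2954, 1653 and 1475 in aged muscle (-1.65 ± 0.34, adjusted p = 0.0423). Its call was lost when any array but aged replicate 51 was left out (adjusted p 0.0673 to 0.232), and within the first station it was at -1.04 (adjusted p = 0.175). Whether this list moved otherwise than the 8 markers described above was not tested.

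**Figure D5:**
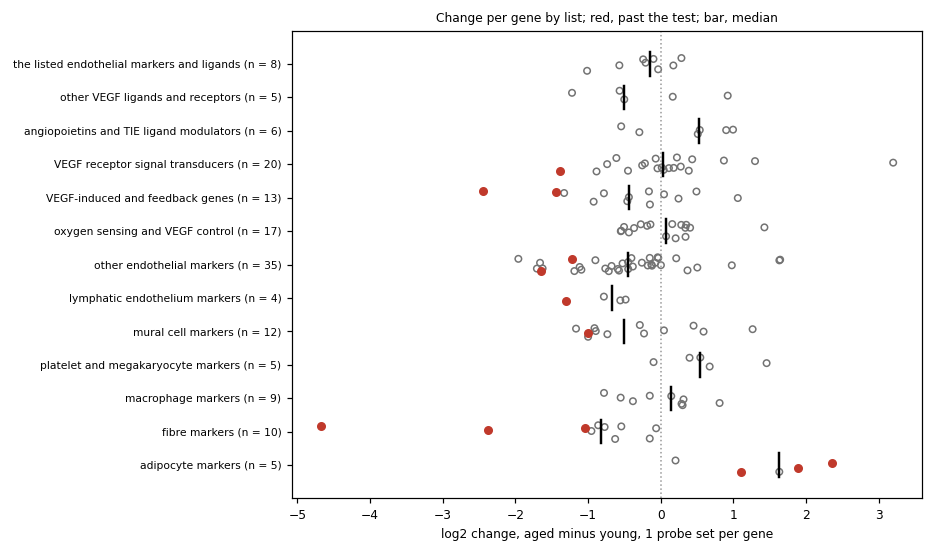
Log2 change (aged minus young) of each tested gene by list, 1 probe set per gene; red points passed the test and black bars are list medians. No point of the top row, the endothelial markers and ligands described here, passed; the medians of other endothelial markers and of oxygen sensing genes lie at -0.45 and 0.07.

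Markers of neighbouring cells were measured beside these values, and their part in any result was not tested. Of 12 tested mural cell markers (pericytes and smooth muscle of the vessel wall) 1 fell and 0 rose (median -0.51). The list includes Des, Abcc9 and Pdgfb, and which cells of whole muscle made each RNA was not tested. Sums below take in every named gene, dim ones included: 15 mural, 5 lymphatic, 10 platelet, 14 macrophage, 10 fibre and 6 adipocyte genes. The mural sum was 122534 to 131410 in young and 86265 to 96036 in aged muscle. Acta2 made up a large part of it, at 57144, 49145 and 59933 in young and 29240, 26245 and 27174 in aged muscle. The called gene was smooth muscle actin, Acta2 (2.01-fold higher in young muscle, adjusted p = 0.0275), whose call was lost when any young array or aged replicate 52 was left out (adjusted p 0.108 to 0.177) or within the first station (adjusted p = 0.0833). Of 4 tested lymphatic markers Pdpn fell (-1.30 ± 0.28, adjusted p = 0.0494) and 3 did not pass (median -0.67, sums of 19642 to 23935 and 8569 to 12358). Pdpn made up a large part of these sums, at 15652, 17071 and 10394 in young and 6195, 4326 and 6954 in aged muscle. Pdpn is also made by fibroblasts. Its call was lost when any array but aged replicate 53 was left out (adjusted p 0.0519 to 0.275) and after quantile normalization (adjusted p = 0.0627). With the RNA quality covariate neither Acta2 (-0.99, adjusted p = 0.133) nor Pdpn (-1.63, adjusted p = 0.109) passed.

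Of 5 platelet markers 0 passed (median 0.55, 1 negative), with Gp1bb at 1.46 ± 1.01 (adjusted p = 0.663) and Gata1 at 0.68 ± 0.55 (adjusted p = 0.716). Pf4, the brightest of the 5, was the negative one, at -0.10 ± 0.31 (adjusted p = 0.933). The summed signal of the list was 20258 to 23034 in young and 23284 to 28876 in aged muscle. Leaving out single arrays moved Gp1bb between 0.39 (without young replicate 1) and 2.29 (without young replicate 2), and Gata1 between 0.29 (without young replicate 2) and 0.998 (without aged replicate 53). Of 9 macrophage markers 0 passed (median 0.15), with Lyz2 at 0.81 ± 0.41 (adjusted p = 0.544, and 0.52 without aged replicate 51 or 1.24 without aged replicate 52) and C1qc at -0.78 ± 1.06 (adjusted p = 0.833), and the sums of 71414 to 98248 and 75489 to 119932 overlapped. The 3 named red cell genes were dim, with sums of 715 to 1470 and 845 to 2267. Of 10 fibre genes 3 fell and 0 rose (median -0.82), with sums of 2249275 to 2776521 in young and 1527084 to 1722067 in aged muscle. Of 5 adipocyte markers 3 rose and 0 fell (median 1.63), with sums of 74112 to 86035 and 150241 to 256167. Fabp4 made up a large part of these sums, at 75001, 63548 and 69649 in young and 115467, 196589 and 147843 in aged muscle. The called genes were Myh7, Myh2 and Myl1 on the fibre list and Retn, Adipoq and Fabp4 on the adipocyte list. Which cells made each of these RNAs, Fabp4 among them, was not tested. Myh2 passed with each array left out in turn, as did Retn, while Myh7 and Adipoq each lost their call without young replicate 2 (adjusted p 0.0533 and 0.0501). Myl1 lost its call when any array but aged replicate 53 was left out, and Fabp4 when any young array or aged replicate 52 was. Myh7 moved from -4.68 to -2.96 once RNA quality entered the fit (adjusted p = 0.228), and the calls of Myl1 (-1.17), Retn (2.66) and Fabp4 (1.195) were lost there too. With probe sets averaged Fabp4 was at 0.61 and did not pass. Only 1 of its 4 tested probe sets was called, and another stood at -0.63. The calls of Retn (1.94), Adipoq (1.88), Myl1 (-0.93) and Fabp4 (0.74) were also lost with the station as a covariate.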

How the data were processed

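RNA was labelled with biotin and hybridised to Affymetrix mouse arrays, per the labels' protocols. The deposited intensity values come from MAS5 per the submitters' processing notes, of a version not given in the sources used here, and every array had been scaled to a mean of 1500 over all but the top and bottom 2% of probe sets. The 64 control probe sets were left out, and log2 was taken of the intensities with no further scaling. Of 45037 probe sets the 22519 at or above the median brightness were tested with limma 3.58.1 in R 4.3.3. The settings were lmFit, eBayes with trend, two-sided, threshold 0.05. The code of the fit was run on simulated independent normal values whose spread followed brightness. These leave out array effects and RNA quality, so they do not bear on how far the calls hold here. MAS5 log signals of dim probe sets vary more, and the number of arrays limits the precision. Names came from the platform's gene table (34958 probe sets with 1 symbol, 932 with several, which stayed unnamed, and 9160 not listed). Gene IDs tied 34754 of them to RefSeq, with 0 symbols changed.

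The members, lists and tests were chosen with earlier results of these data known, and no score over members was tested. The 13 lists held 188 genes, 173 named and 141 tested. Named are all 10 members with every probe set and, of each other list, up to 4 called genes or else the 2 with the greatest change. Pf4 is given besides, as the brightest tested platelet marker. The red cell genes were dim and are given as sums only. Motifs and figures were made with pandas 2.3.3 and matplotlib 3.10.9 in Python 3.11.15. Alternatives were other normalizations (quantile, median centring), no filter or one at the 60th percentile, a pseudocount of 219, each array left out, the fluidics station or RNA quality as a covariate, the first station alone, no trend, robust moderation, array weights, removal of probe sets prone to cross-hybridisation, and probe sets averaged per gene.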

Additional observations from a re-analysis of the deposited data

How the results depend on the processing

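No paired analysis was possible because young and aged arrays share no replicate numbers. No member probe set passed under any of the 19 alternatives: of 187 recomputed member changes 0 were called and 29 had the other sign, and 2 of the 10 tested probe sets, Tek and Flt1 1440926_at, kept their sign under all that could be fitted. The first station alone and the station as a covariate give the same estimates by construction, 1.15 for Cdh5, 0.17 for Vwf, -0.58 for Flt1 1451756_at, 0.81 for Flt1 1419300_at, 0.99 for Vegfa, 0.24 for Vhl and 0.69 for C1qc, each of the other sign than the main value. With the RNA quality covariate Cdh5 was at 1.50, Emcn at 0.54, Flt1 1419300_at at 3.13, Vegfa at 1.84 and Vhl at 1.09, and the median of the ligands moved to 0.46. Emcn was at 0.031 with array weights, and Flt4 at 0.22 with probe sets averaged. With 1 array left out Cdh5 ran from -0.88 to 0.62, Emcn from -0.66 to 0.34, Vwf from -0.37 to 0.20, Kdr from -0.0074 to 0.28, Flt1 1419300_at from -1.55 to 1.17, Vegfa from -0.85 to 0.76, Vegfb from -1.28 to 0.053, Angpt1 from -0.014 to 1.50, Vhl from -0.94 to 0.24 and C1qc from -1.51 to 0.49. The median change of all tested probe sets was -0.11 after median centring.

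In all 237 probe sets passed in the main setting, 124 to 342 with a single array dropped, 365 on the first station alone, 138 with the RNA quality covariate and 21 without the trend. Of the pathway and endothelial lists 5 genes passed, 1 to 5 with a single array dropped, 3 with median centring, 2 with the station as a covariate or with probe sets averaged, and 0 with the RNA quality covariate or without the trend. Of the lists of other cell types 8 passed, 2 to 10 with a single array dropped, 4 with median centring or on the first station alone, 3 with the station as a covariate, 2 with the RNA quality covariate, 5 without probe sets prone to cross-hybridisation and 0 without the trend. The cause of these shifts was not tested, other than that leaving out arrays leaves fewer samples.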
